A study of Mus musculus with 5 samples.

Results

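The genes described here were 39 transcription factors of the subpallium and the amygdala, out of 22532 genes listed in the count matrices of single-nucleus RNA sequencing of the mouse central amygdala (CeA). They were chosen by name, for their known place in ventral forebrain development, with earlier results of these data known. None of them was used to sort the nuclei into classes. The central amygdala is an inhibitory nucleus that gates feeding, fear and reward behaviour. All 5 libraries were labelled C57BL6, and the study's methods give C57BL/6NRj for wild-type animals. Each held nuclei from the pooled CeA of 2 mice, 1 male and 1 female, and the sexes were not separated here. Fed 1 and fed 2 came from mice of 8 weeks on a normal diet. Fed 3 came from Htr2a-Cre mice of 12 weeks, a BAC transgenic line whose CeA had received a Cre-dependent mCherry virus, and this was the one library that held mCherry counts (3152 UMIs, unique molecular identifiers). Fasted 1 and fasted 2 came from mice of 8 weeks deprived of food for 20 and 21 hours.

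Neurons of the subpallium arise from the ganglionic eminences. MEIS, DLX, SP, FOXP and EBF factors are known from the lateral eminence and the striatal and amygdalar projection neurons that come from it, whereas NKX2-1, LHX6, LHX8, SOX6, SATB1 and MAF are known from the medial eminence and its interneurons. NR2F1, NR2F2 and PROX1 are associated with the caudal eminence, and FOXP2 together with TSHZ1 marks the intercalated neurons that border the amygdala. Many of these factors stay on in adult neurons, where they help to keep the identity of a cell type.

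After the filter of 500 to 8000 genes per nucleus and less than 0.8% mitochondrial UMIs, 7161 nuclei remained, 1130 to 1734 per library, with a median of 6608 to 16367 UMIs per nucleus. Library pairs shared at most 1 barcode. Scrublet called 1.01% of the nuclei doublets, and they were kept. The median mitochondrial share was 0.0529% to 0.136% in the fed libraries and 0.237% and 0.317% in the fasted libraries. Of the nuclei, 5578 carried a Gad1 or Gad2 UMI, the enzymes of GABA synthesis, and passed no glial or excitatory gate.

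Nuclei were sorted by raw UMIs of genes outside the list. Inhibitory classes were named by their gate gene, at least 2 UMIs at 3 times the mean of inhibitory nuclei or more: Prkcd (350 nuclei), Calcrl (309), Dnah5 (Dnah5, Vipr2, Nts or Tac2, 250), Sst (185), Tac1 (47), Vdr (52), Dlk1 (218), Rai14 (218), Rarb (522), Pde1c (205) and Interneuron (Nxph1 or Kcnmb2, 254). A further 2449 inhibitory nuclei passed no gate and 519 passed several gates, and neither set was given a class. Excitatory nuclei (67), astrocytes (448), oligodendrocytes (134), oligodendrocyte precursors (OPC, 56) and microglia (49) were gated by marker UMIs with cuts of their own. UMIs were summed per class and library where at least 10 nuclei were present, so Tac1, Vdr, Excitatory and Microglia rest on 3 libraries, OPC on 4 and the others on 5. Levels are given in CPM, the UMIs of a gene scaled to one fixed total for every sum, in the order fed 1, fed 2, fed 3, fasted 1 and fasted 2 where 5 values follow each other, and as mean ± SD over libraries. A level in a sum of nuclei cannot tell a change in each nucleus from a change in how many nuclei of a kind the gate held.

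**Figure D1:**
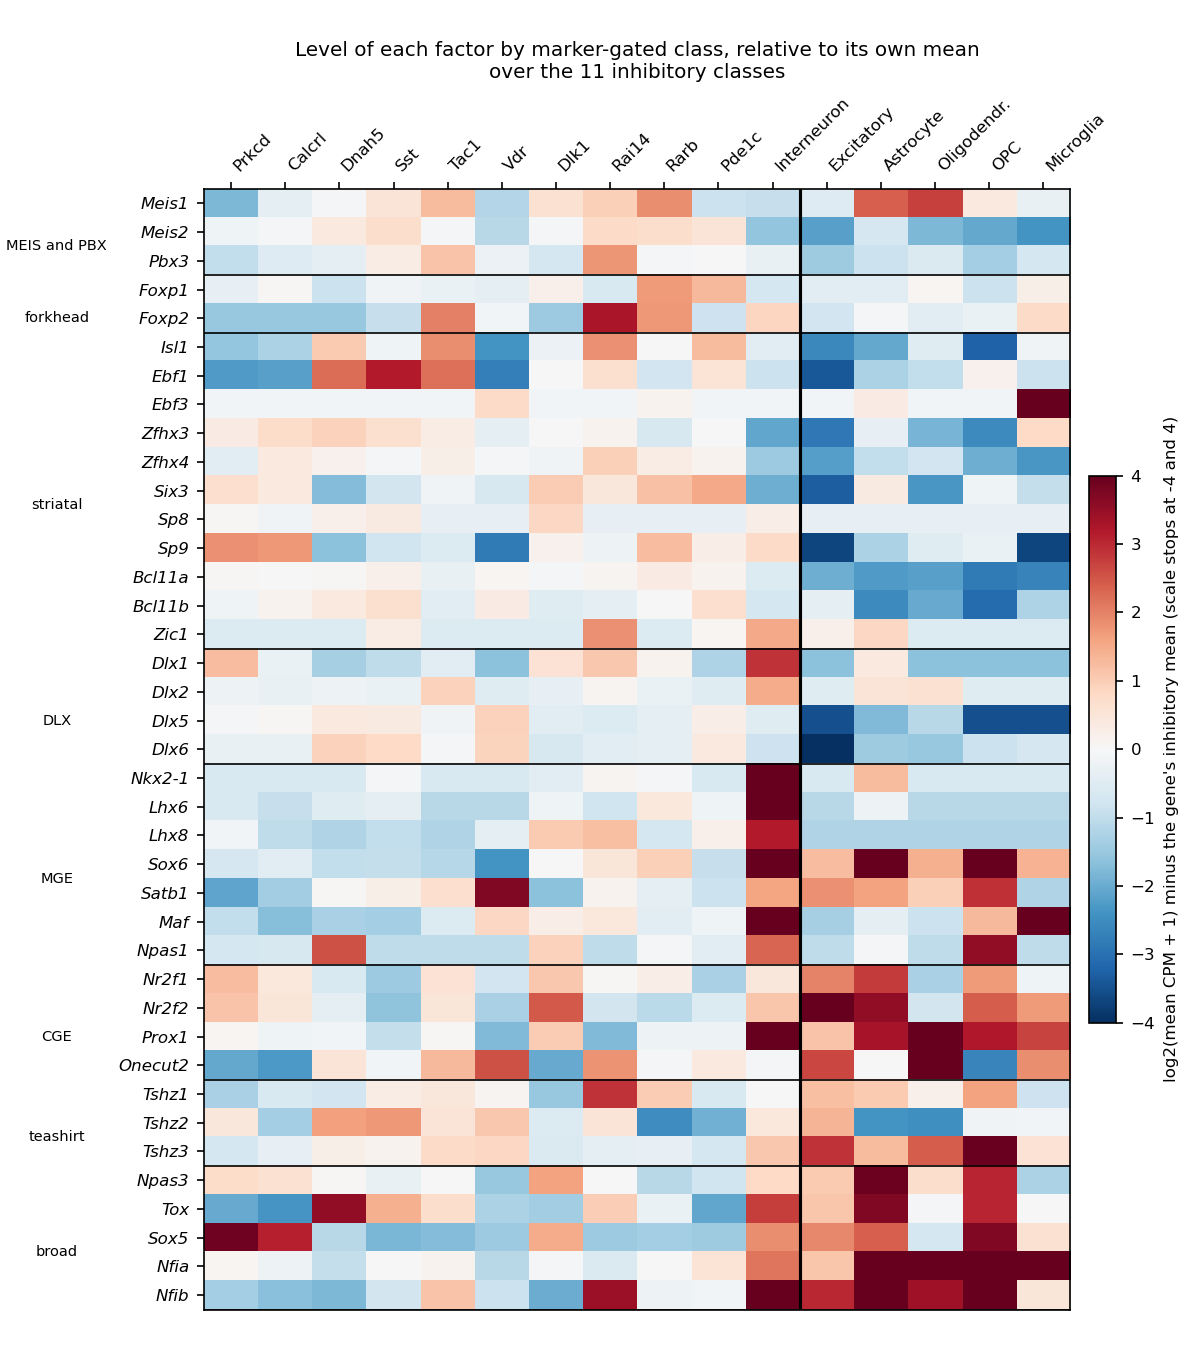
Level of each of the 39 factors (rows, grouped by role, with MGE and CGE for the medial and caudal ganglionic eminence) in the 16 marker-gated classes (columns). Colour shows log2(mean CPM + 1) minus the mean of the same gene over the 11 inhibitory classes, so colours compare classes within a gene and not genes with each other. Among the inhibitory classes, Sox5 was darkest red in Prkcd and Calcrl nuclei, Tox in Dnah5 nuclei, Satb1 in Vdr nuclei, Foxp2 and Tshz1 in Rai14 nuclei, Nfib in the Rai14 and Interneuron classes, and Lhx6, Nkx2-1, Sox6 and Maf in the Interneuron class.

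For each class the log2 level of a gene was compared with the mean log2 level over the other inhibitory classes in 1 edgeR fit over 10535 genes, with the library as a term. Of the 39 factors 33 passed the filter on low counts. Dlx2, Dlx5, Ebf3, Npas1, Sp8 and Zic1 did not. Dlx1, Lhx6, Lhx8 and Nkx2-1 passed it through the Interneuron class alone, and Onecut2 reached its cut in 3 or more libraries in 1 class only. Calls of the former in the Interneuron class, such as the higher ones of Lhx6 and Nkx2-1, stay in the counts that follow. They are no support, since the filter let these genes in through the class where they were high. The factors were also chosen with earlier results of these data known, so the counts that follow do not weigh the list as a whole. At an adjusted p under 0.05, 257 of the 528 pairs of a tested factor and a class were called in either direction, where 20.0% of all pairs of a gene and a class were. By class, the tested factors were 7 higher and 13 lower in Prkcd nuclei, where 14.9% and 12.4% of all genes were called higher and lower. They were 6 higher and 10 lower in Calcrl nuclei (all genes 10.3% and 7.70%), 8 higher and 8 lower in Dnah5 nuclei (8.81% and 5.56%), 7 higher and 5 lower in Sst nuclei (5.22% and 3.12%), 5 higher and 1 lower in Tac1 nuclei (2.00% and 1.19%) and 4 higher and 5 lower in Vdr nuclei (4.02% and 2.86%). In Dlk1 nuclei 7 higher and 8 lower were called (all genes 3.84% and 2.90%), in Rai14 nuclei 14 higher and 4 lower (6.91% and 3.64%), in Rarb nuclei 10 higher and 5 lower (9.07% and 5.09%), in Pde1c nuclei 8 higher and 5 lower (8.95% and 6.46%) and in the Interneuron class 18 higher and 10 lower (15.9% and 11.1%). The median absolute log2 difference of the tested factors was 1.11 in Prkcd nuclei and 0.44 in Rarb nuclei, against 0.27 and 0.19 over all genes tested.

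MEIS and PBX proteins are TALE homeodomain factors that bind DNA together. Meis1 was higher in Rarb nuclei, at 177, 189.5, 150.5, 169 and 138 CPM, than in any other inhibitory class on average, with a log2 difference of 2.15 ± 0.17 (SE, edgeR adjusted p = 1.38e-17). It was lowest in Prkcd nuclei, at 12.1 ± 2.83 CPM (SD, n = 5), and the libraries of the 2 classes did not overlap. Meis2, a regulator of striatal projection neurons, was detected in 98.1% ± 1.27 (SD, n = 5) of Rarb nuclei and 96.6% ± 3.39 (SD, n = 5) of Rai14 nuclei once each nucleus was thinned to 4000 UMIs, the depth at which all shares of nuclei below are given. Its level was 1825 ± 315 in Rai14 and 1747 ± 296 CPM (SD, n = 5) in Rarb nuclei, an order that held in 3 of 5 libraries, with Sst nuclei beside them at 1747 ± 385 CPM (SD, n = 5), and 362 ± 67.1 CPM (SD, n = 5) in the Interneuron class (log2 difference -1.72). Pbx3 peaked in Rai14 nuclei at 834, 1055, 776, 599.8 and 869 CPM, with a log2 difference of 1.98 ± 0.15 (SE, edgeR adjusted p = 2e-18). Tac1 nuclei came next for Pbx3 at 533 ± 165 CPM (SD, n = 3), below the Rai14 value in 3 of 3 libraries, and Prkcd nuclei were lowest at 123 ± 14.7 CPM (SD, n = 5).

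The forkhead repressors Foxp1 and Foxp2, close relatives that can form dimers, marked partly different classes. Foxp1 was highest in Rarb nuclei, at 806, 773, 783, 721 and 715 CPM, and in Pde1c nuclei, at 599, 508, 660.0, 609.8 and 499 CPM. Its log2 differences were 1.95 ± 0.09 (SE, edgeR adjusted p = 4.48e-31) and 1.55 ± 0.10 (SE, edgeR adjusted p = 1.42e-22), and every library of both classes lay above every library of the Dnah5 class (127 ± 26.1 CPM (SD, n = 5)). Foxp2 was highest in Rai14 nuclei at 494, 904, 798, 322 and 674 CPM, a log2 difference of 3.61 ± 0.18 (SE, edgeR adjusted p = 1.44e-28). It followed in Tac1 nuclei, at 441, 216 and 151 CPM in fed 2, fed 3 and fasted 2, and in Rarb nuclei, at 220.0 ± 115 CPM (SD, n = 5). The Tac1 call, a log2 difference of 1.93, was lost without fed replicate 2 (1.26, edgeR adjusted p = 0.0546). In Prkcd, Calcrl and Dnah5 nuclei Foxp2 stood at 22.1 ± 10.5, 22.1 ± 15.2 and 22.2 ± 13 CPM (SD, n = 5). Both genes were detected in 21.8% ± 4.33 (SD, n = 5) of Rarb nuclei, where the product of their single shares was 25.8%, and the joint share was below the product in each of the 5 libraries.

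Among factors of the lateral eminence and the striatum, Ebf1, a helix-loop-helix factor of striatonigral differentiation, separated the classes most widely. Sst nuclei held 916, 1556, 1113, 827 and 1154 CPM, Dnah5 nuclei 549, 731, 611, 556 and 482 CPM and Tac1 nuclei 490.4, 462 and 784 CPM in fed 2, fed 3 and fasted 2. Log2 differences were 3.53 ± 0.19 (SE, edgeR adjusted p = 2.32e-26), 2.53 ± 0.20 (SE, edgeR adjusted p = 2.32e-17) and 2.33 ± 0.29 (SE, edgeR adjusted p = 4.78e-08). The Sst value was above the Dnah5 value in 5 of 5 libraries. In Prkcd, Calcrl and Vdr nuclei Ebf1 averaged 24.9, 26.6 and 17.8 CPM, with log2 differences of -2.63, -2.27 and -3.44. Its relative Ebf3 had 2 UMIs in all inhibitory classes together, so no level can be given.

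Isl1, a LIM homeodomain factor of striatonigral and cholinergic neurons, was low throughout but not even. It reached 32.9 ± 8.02 CPM (SD, n = 3) in Tac1 nuclei, 32.7 ± 4.28 CPM (SD, n = 5) in Rai14 nuclei and 16.8, 43.6, 18, 12.9 and 15.9 CPM in Pde1c nuclei, against 2.26 ± 2.31 in Prkcd and 2.96 ± 2.42 CPM (SD, n = 5) in Calcrl nuclei. The log2 difference in Tac1 nuclei was 1.92 ± 0.47 (SE, edgeR adjusted p = 0.00893) from 23 UMIs, and it missed the threshold without fed replicate 2, fed replicate 3 or fasted replicate 2, with values of 1.93, 1.96 and 2.08. In Pde1c nuclei it was 1.5 ± 0.35 (SE, edgeR adjusted p = 0.000777), and 1.03 without fed replicate 2 (edgeR adjusted p = 0.0628). Six3, known from developing striatopallidal neurons, was highest in Pde1c nuclei, at 50.4, 52.3, 34.5, 49.1 and 45.6 CPM, with a log2 difference of 1.85 ± 0.21 (SE, edgeR adjusted p = 4.06e-11). It was also called higher in Rarb, Dlk1, Prkcd, Calcrl and Rai14 nuclei, with log2 differences of 1.45, 1.01, 0.85, 0.56 and 0.66, and lower in the Dnah5 and Interneuron classes (-2.02 and -2.52). These differences are from the mean log2 level of the other classes, which weighs their low levels more than the mean CPM does. On the CPM scale Six3 in Calcrl nuclei, at 20.96, was level with the mean of the other classes, 20.94, and lay above it in 2 of 5 libraries, and in Rai14 nuclei in 3 of 5.

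Sp9, a zinc finger factor required for striatopallidal neurons, rose in Prkcd nuclei, at 44.6, 46.6, 44.3, 42.6 and 45.1 CPM, and in Calcrl nuclei, at 35.8, 45.4, 62.1, 30 and 35.8 CPM. Both log2 differences were near 2, 2.08 ± 0.19 (SE, edgeR adjusted p = 2.21e-15) and 2.03 ± 0.19 (SE, edgeR adjusted p = 2.11e-14). In Dnah5, Sst and Vdr nuclei Sp9 averaged 3.05, 6.40 and 0.811 CPM. Its relative Sp8 had at most 7 UMIs in a class, in Dlk1 nuclei. Zic1, a zinc finger factor of ventral forebrain progenitors, had 16 UMIs in Rai14 nuclei, 7 in the Interneuron class and at most 2 in any other inhibitory class.

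Zfhx3 and Zfhx4 are giant homeodomain zinc finger proteins. Zfhx3 was detected in over 90% of the nuclei of 8 classes, with 2632, 2502, 2780, 2289 and 1921 CPM in Dnah5 and 2148, 2337, 1924, 2298 and 1899 CPM in Calcrl nuclei. Log2 differences there were 1.02 and 0.82 ± 0.17 (SE, edgeR adjusted p = 8.28e-05). The Interneuron class was lowest at 301 ± 164 CPM (SD, n = 5), with -2.32 ± 0.23 (SE, edgeR adjusted p = 3.73e-14). Zfhx4 ranged from 68.8 ± 23 CPM (SD, n = 5) in the Interneuron class to 366 ± 155 CPM (SD, n = 5) in Rai14 nuclei.

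Bcl11a and Bcl11b (Ctip1 and Ctip2), zinc finger factors of striatal and other forebrain neurons, were the flattest of the well detected members. Bcl11a ran from 257 ± 93.7 CPM (SD, n = 5) in the Interneuron class to 478 ± 45.2 CPM (SD, n = 5) in Rarb nuclei and passed the test in 2 of 11 inhibitory classes. Bcl11b passed in 6 and was highest in Pde1c (530.0 ± 111) and Sst nuclei (520.1 ± 72.5 CPM (SD, n = 5)), an order that held in 3 of 5 libraries. Both were detected together in 66.7% ± 9.93 (SD, n = 5) of Sst nuclei and 18.9% ± 4.39 (SD, n = 5) of Interneuron nuclei. The products of the single shares were 65.5% and 17.6%.

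DLX homeodomain factors start the GABA programme in the ganglionic eminences and lie as neighbouring pairs in the genome, Dlx1 beside Dlx2 and Dlx5 beside Dlx6. All 4 were low in these adult nuclei. Dlx1 was highest in the Interneuron class, at 17.2, 24.6, 23, 20.4 and 23.4 CPM, and it was next in Prkcd nuclei at 6.20 ± 2.73 CPM (SD, n = 5). It passed the count filter through the Interneuron class alone, so no test is given. Dlx2 had 11 UMIs in the Interneuron class and 10 in the other inhibitory classes. Dlx6 stood at 37.7, 39.7, 39.2, 38.7 and 35.2 CPM in Sst nuclei and 41.2 ± 18.1 CPM (SD, n = 5) in Dnah5 nuclei, with log2 differences of 0.88 ± 0.21 (SE, edgeR adjusted p = 0.00236) and 1.14. In Vdr nuclei Dlx6 held 30.9, 33 and 58.4 CPM in fed 1, fed 3 and fasted 2, a log2 difference of 1.23 ± 0.33 (SE, edgeR adjusted p = 0.0088) that fell to 0.72 without fasted replicate 2 (edgeR adjusted p = 0.601). Dlx5 ranged from 6.83 ± 5.03 in Rai14 to 20.5 ± 3.93 CPM (SD, n = 3) in Vdr nuclei and was not tested. Dlx5 and Dlx6 were seen in the same nucleus in 1.00% ± 1.61 (SD, n = 5) of Dnah5 nuclei, a product of 0.684% being given by the single shares.

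Factors of the medial eminence were confined to the Interneuron class only in part. Lhx6, a LIM homeodomain factor that interneurons of this origin keep for life, held 83.8, 86.8, 74.8, 71.5 and 99.2 CPM there, 320 UMIs against 30 in the other 10 inhibitory classes together. Nkx2-1, which specifies the medial eminence, had 103 UMIs in the class and 8 in the other 10 inhibitory classes together, and was at 0 in 6 of these 10. Inhibitory nuclei that passed no gate or several gates are not in these counts. Thinned to 4000 UMIs, 33 of 2329 nuclei without a gate held a Lhx6 UMI and 7 a Nkx2-1 UMI. In the Interneuron class these were 57 and 22 of 235 nuclei. Both genes passed the count filter through the Interneuron class alone, so their levels there are given without a test. Sox6, an SRY-box factor downstream of Lhx6, stood at 859.7, 1539, 1199, 988 and 1325 CPM, a log2 difference of 6.82 ± 0.20 (SE, edgeR adjusted p = 3.17e-43), and was at 33.5 CPM or less on average in every other inhibitory class. Maf, a leucine zipper factor of these interneurons, had 182 ± 41.5 CPM (SD, n = 5) and Lhx8, known from cholinergic neurons, 19.9 ± 5.78 CPM (SD, n = 5). Lhx8 was also called in Rai14 and Dlk1 nuclei (log2 differences 2.26 and 1.97), at 4.32 and 3.73 CPM. Both levels were near the floor: thinned to 4000 UMIs, 3 of 214 Rai14 and 2 of 215 Dlk1 nuclei held a Lhx8 UMI. The gene was at 0 in 2 of the 10 inhibitory classes outside the Interneuron class, so the size of these differences is not read. Npas1, a PAS-domain factor of pallidal neurons and interneurons, had 24 UMIs in the class and 33 in Dnah5 nuclei.

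Satb1, a chromatin organiser that medial-eminence interneurons need to mature, went another way. It was highest in Vdr nuclei, at 314, 176 and 263 CPM in fed 1, fed 3 and fasted 2, with a log2 difference of 4.04 ± 0.25 (SE, edgeR adjusted p = 3.35e-22), against 57.6 ± 27.3 CPM (SD, n = 5) in the Interneuron class and 3.51 ± 2.41 CPM (SD, n = 5) in Prkcd nuclei. At matched depth a Satb1 UMI was found in 61.8% ± 8.48 (SD, n = 3) of Vdr nuclei and in 14.3% of Interneuron nuclei. The 3 Vdr libraries that entered were all above every library of the other 10 classes. Onecut2, a cut-homeodomain factor, moved with it at a lower level: Vdr nuclei held 20.6, 27.5 and 56 CPM in fed 1, fed 3 and fasted 2, a log2 difference of 3.20 ± 0.54 (SE, edgeR adjusted p = 9.83e-06) from 32 UMIs.

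The orphan nuclear receptors Nr2f1 and Nr2f2 (COUP-TFI and COUP-TFII) mark the caudal eminence. Nr2f1 rose in Prkcd nuclei, at 64, 40.9, 54.8, 23.5 and 43.6 CPM, and in Dlk1 nuclei, at 54.4, 32, 37.6, 38.2 and 41 CPM, with log2 differences of 1.38 ± 0.19 (SE, edgeR adjusted p = 1.05e-08) and 1.08 ± 0.22 (SE, edgeR adjusted p = 0.000258). The Dlk1 call missed the threshold with the fed libraries alone (0.87, edgeR adjusted p = 0.062). Nr2f2 was highest in Dlk1 nuclei at 54.4, 46.6, 49.3, 0 and 37.2 CPM, a wide spread, with a log2 difference of 2.95 ± 0.24 (SE, edgeR adjusted p = 5.67e-16). Prox1, the homeodomain factor of caudal-eminence interneurons, stood at 56.5 ± 17.7 CPM (SD, n = 5) in the Interneuron class and at 5.96 CPM in the next class, Dlk1.

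Teashirt proteins are zinc finger homeodomain repressors. Tshz1 was highest in Rai14 nuclei, at 223, 303, 288, 128 and 192 CPM, with a log2 difference of 3.28 ± 0.16 (SE, edgeR adjusted p = 1.39e-28), and next in Rarb nuclei at 60.5 ± 27 CPM (SD, n = 5). Tshz2 was highest in Sst and Dnah5 nuclei, at 1751, 2293, 2101, 1208 and 1551 CPM and 2043, 1458, 1903, 1481 and 1408 CPM. Its log2 differences were 1.91 ± 0.20 (SE, edgeR adjusted p = 1.42e-12) and 1.80 ± 0.19 (SE, edgeR adjusted p = 5.99e-12), and the 2 classes kept no order, Sst being higher in 3 of 5 libraries. Rarb and Pde1c nuclei were lowest, at 94.6 ± 31.8 and 142 ± 138 CPM (SD, n = 5) (-2.63 and -2.18). Tshz3 stayed at 23.5 CPM or less on average in all inhibitory classes.

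**Figure D2:**
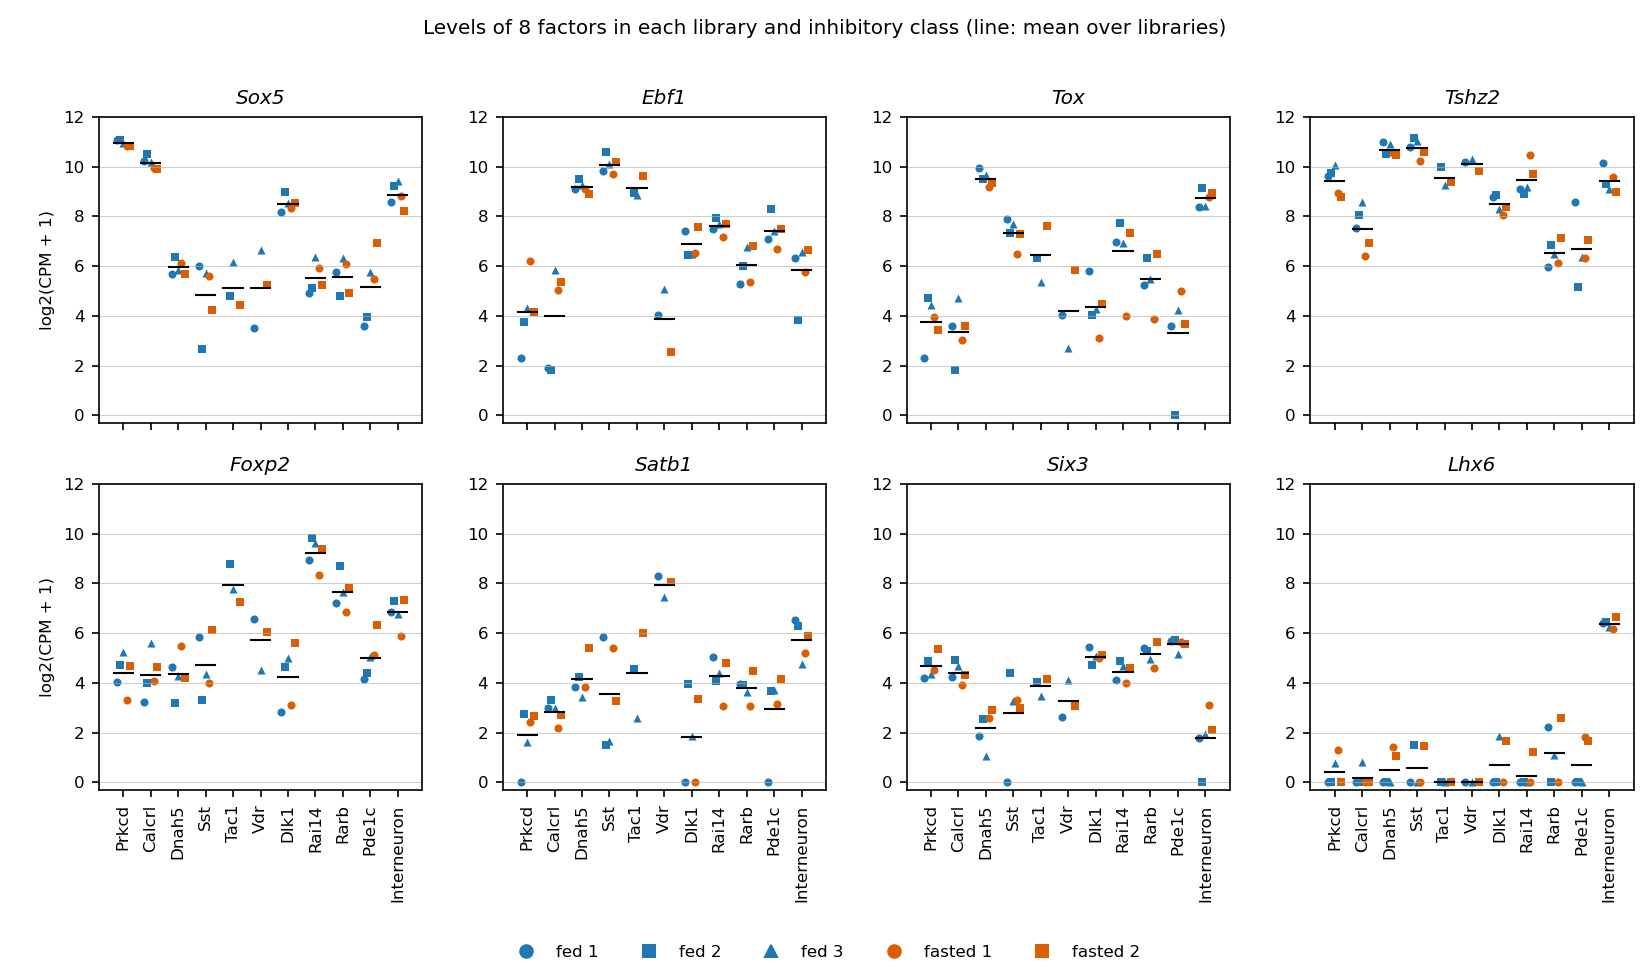
Levels of 8 factors as log2(CPM + 1) on the vertical axis in each inhibitory class, 1 point per library (blue fed, orange fasted, symbol by replicate) and a line at the mean. Sox5 and Ebf1 were high in different classes, and the 5 libraries of a class lay close together for well detected genes and apart for sparse ones such as Satb1 and Lhx6 outside their main class.

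Of the broadly used factors, Sox5, an SRY-box factor without a transactivation domain, gave the largest step in Prkcd and Calcrl nuclei. Prkcd nuclei held 2169, 2163, 1983, 1830 and 1846 CPM and Calcrl nuclei 1190, 1466, 1154, 978 and 951 CPM, with log2 differences of 4.31 ± 0.16 (SE, edgeR adjusted p = 1.36e-36) and 3.46 ± 0.17 (SE, edgeR adjusted p = 2.79e-29). The Prkcd value was above the Calcrl value in each of the 5 libraries. Dlk1 nuclei at 372 ± 79.9 CPM (SD, n = 5) and the Interneuron class at 484 ± 157 CPM (SD, n = 5) were intermediate, and Sst nuclei were lowest at 37.2 ± 24.3 CPM (SD, n = 5) (-2.37). Sox5 passed the test in all 11 inhibitory classes, 4 higher and 7 lower than the mean log2 level of the others.

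Tox, an HMG-box factor, marked Dnah5 nuclei, at 978, 729.6, 809, 578 and 644 CPM, a log2 difference of 3.91 ± 0.16 (SE, edgeR adjusted p = 7.04e-34). It was also higher in the Interneuron class (433 ± 100.2 CPM (SD, n = 5), 3.05), Sst nuclei (1.48) and Rai14 nuclei (1.26), and lower in Calcrl, Prkcd, Pde1c and Dlk1 nuclei. The Sst and Rai14 calls are against the mean log2 level: in CPM, Tox stood at 171 in Sst and 127 in Rai14 nuclei against means of 163 and 168 in the other classes, and was above that mean in 2 and 1 of 5 libraries. Npas3, a PAS-domain factor, rose in Dlk1 nuclei, at 791, 829, 649, 604 and 805 CPM, with 1.73 ± 0.14 (SE, edgeR adjusted p = 5.67e-16). The nuclear factor I proteins Nfia and Nfib, known for gliogenesis, differed among neurons. Nfib reached 236, 301, 258, 67.5 and 226 CPM in Rai14 nuclei (3.93 ± 0.19 (SE, edgeR adjusted p = 1.44e-28)) and 363 ± 97.9 CPM (SD, n = 5) in the Interneuron class, and 4.10 CPM in Dlk1 nuclei. Nfia had its highest inhibitory level in the Interneuron class, at 62.9 ± 13.1 CPM (SD, n = 5) (2.32).

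Combinations were read as the share of nuclei, thinned to 4000 UMIs, with a UMI of both factors, beside the product of the single shares in the same library. Such shares cover detection at this depth and not expression, and UMIs of free RNA add to them. Sox5 was found in 98.5% of Prkcd and 84.8% ± 7.09 (SD, n = 5) of Calcrl nuclei, and Ebf1 in 78% ± 10.2 (SD, n = 5) of Sst and 69.1% ± 3.92 (SD, n = 5) of Dnah5 nuclei. Shares of the other gene of the pair were low: Ebf1 in 4.47% of Prkcd nuclei, Sox5 in 10.3% of Sst and 12.4% of Dnah5 nuclei. Oligodendrocytes serve here as a background. Of 134, 92 were too shallow for thinning, and the shares rest on 29 nuclei of 2 libraries. They showed Sox5 in 15.4% and Ebf1 in 17.2% of these nuclei, so those low shares are not read as expression (median depth before thinning 3023.5 UMIs in oligodendrocytes and 11526 in Prkcd nuclei). Over all inhibitory nuclei both were detected in 2.20%, 2.78%, 6.64%, 3.48% and 2.35% of nuclei in the 5 libraries, a mean of 3.49% ± 1.83 (SD, n = 5) against 8.44% from the single shares. The joint share was below the product in each library. Without thinning it was 12.2%, where the single shares were 45.2% for Sox5 and 35.4% for Ebf1.

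Pairs of factors that marked the same class were often met in the same nucleus. Ebf1 with Tshz2 was found in 74% ± 12.4 (SD, n = 5) of Sst nuclei and 67% ± 3.90 (SD, n = 5) of Dnah5 nuclei, and Tox with Ebf1 in 53% ± 5.49 (SD, n = 5) of Dnah5 nuclei. Without thinning these shares were 78.7%, 82.5% and 75.6%. The products of the single shares were 64.1%, 64.4% and 52.1%. In Sst nuclei the joint share of Ebf1 and Tshz2 was above the product in each of the 5 libraries. Lhx6 with Sox6 was found in 22.6% ± 3.85 (SD, n = 5) of Interneuron nuclei, where the product was 16.9%, and the joint share was above it in 5 of 5 libraries. Lhx6 with Lhx8 was found in 2.22% ± 1.40 (SD, n = 5). In Pde1c nuclei Six3 and Foxp1 met in 16.9% ± 6.05 (SD, n = 5), and in Rarb nuclei Meis1 and Foxp1 in 33.8% ± 2.77 (SD, n = 5). The single shares were 20.5% and 83.8% in Pde1c and 38.7% and 84.55% in Rarb nuclei. These joint shares are not read as more than the single shares give.

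**Figure D3:**
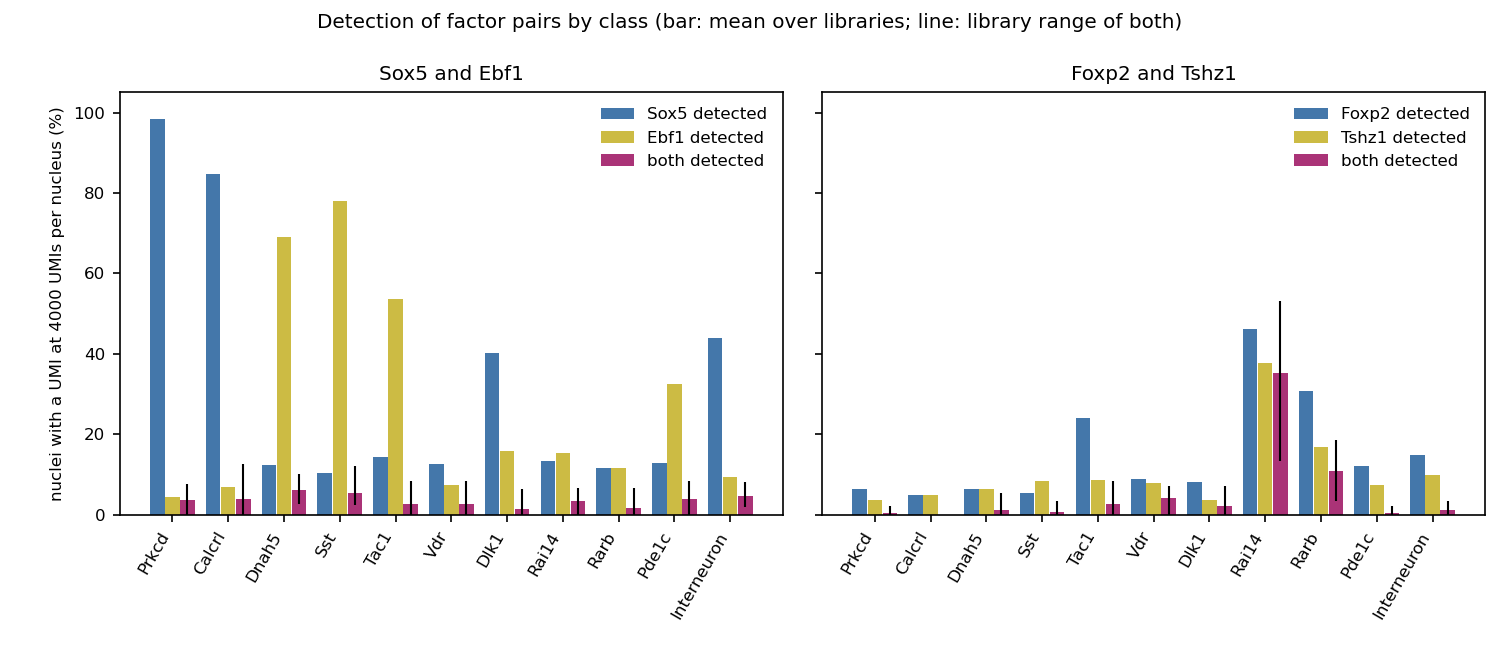
Share of nuclei (vertical axis, %) with a UMI of each factor and of both, at 4000 UMIs per nucleus, in the 11 inhibitory classes, for Sox5 with Ebf1 and Foxp2 with Tshz1. Bars are means over libraries and black lines the range over libraries of the joint share. Sox5 and Ebf1 bars were tall in different classes, and Foxp2 and Tshz1 were tall together in Rai14 nuclei.

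Foxp2, Tshz1 and Nfib were met in the same Rai14 nuclei more often than their single shares gave. Foxp2 and Tshz1 were detected together in 35.5%, 53.1%, 44.2%, 13.3% and 30.3% of Rai14 nuclei, a mean of 35.3% ± 15 (SD, n = 5) against a product of 19.4%, and the joint share was above the product in each of the 5 libraries. The same held in Rarb nuclei, at 10.9% ± 5.42 (SD, n = 5) against 5.43%. Without thinning the joint shares were 46.3% and 16.2%. The unthinned single shares of Foxp2 and Tshz1 were 57.15% and 52.03% in Rai14 and 39.68% and 25.66% in Rarb nuclei. Nfib with Foxp2 was found in 34% ± 13.7 (SD, n = 5) of Rai14 nuclei (product 17.8%) and Nfib with Tshz1 in 28.6% ± 11.1 (SD, n = 5) (14.9%), above the product in each of the 5 libraries. In Calcrl nuclei, Foxp2 was detected in 4.91% and Tshz1 in 5.02%.

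Rai14 nuclei were set apart into 148 with a UMI of Foxp2 or Tshz1 and 70 with neither, before thinning. The split was made after the levels were seen and is described without a test. Nfib stood at 512, 441, 353, 221 and 315 CPM in the first and 11.7, 3.55, 4.57, 0 and 4.50 CPM in the second, so every library was apart. Pbx3 and Tox were likewise higher in the first, at 1129 ± 213 against 443 ± 77.8 CPM and 190.0 ± 109 against 27.6 ± 17.5 CPM. Isl1, Zfhx4 and Tshz2 were higher on average in the second, Zfhx4 at 568 ± 142 against 179 ± 114 CPM. Meis2 and Ebf1 were present in both. The first kind made up 17 of 32, 37 of 49 and 32 of 43 Rai14 nuclei in the fed and 7 of 18 and 55 of 76 in the fasted libraries. Fed 1 and fasted 1, with the lowest shares, also had the lowest median depth, 8326 and 6608 UMIs per nucleus. The part of depth in this unthinned split was not tested.

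**Figure D4:**
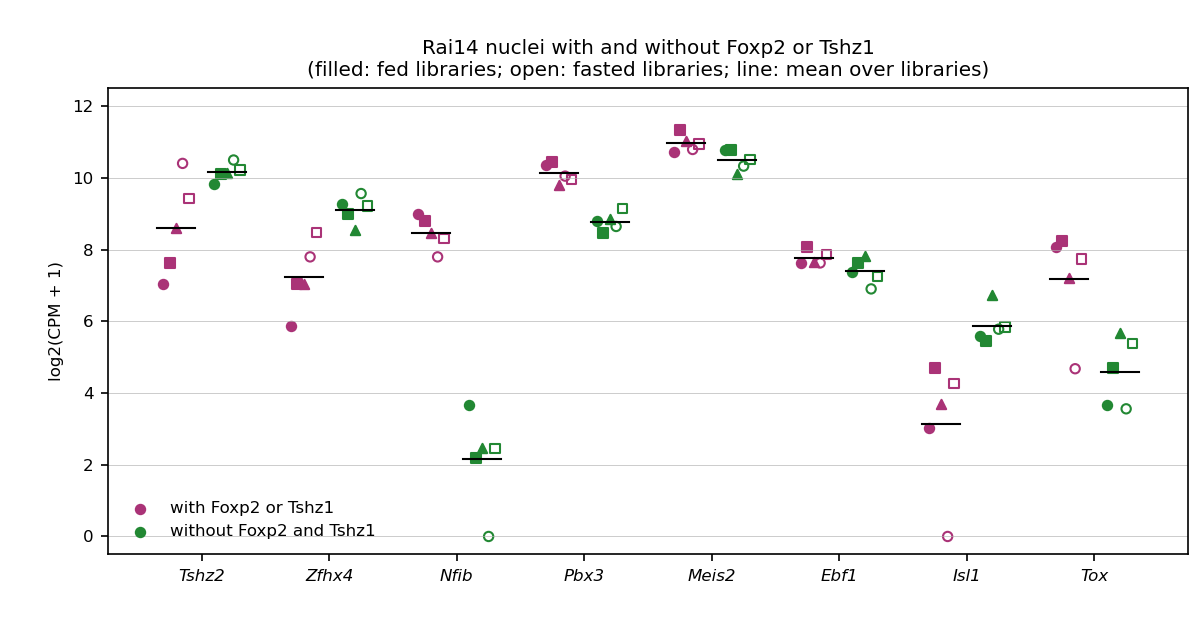
Levels of 8 factors as log2(CPM + 1) on the vertical axis in Rai14 nuclei with (purple) and without (green) a UMI of Foxp2 or Tshz1, 1 point per library (filled fed, open fasted) and a line at the mean. Nfib, Pbx3 and Tox were higher with the pair, and Zfhx4, Isl1 and Tshz2 were higher without it on average.

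Promoter sequence was looked at for 4 members, chosen because each pair was called higher in the same 2 classes, Sox5 and Sp9 (in Prkcd and Calcrl nuclei) and Ebf1 and Tshz2 (in Sst and Dnah5 nuclei). RefSeq windows of build GRCm38.p6 were at hand for 29 of the 39 factors, 47 windows in all, and the 250 bases before the start are given 5′ to 3′ in the sense of the gene, the first of 2 starts for Ebf1. Capitals mark a match on either strand to a motif of the members' own families: TAATTA (DLX and LIM homeodomain), TGACAG (MEIS), TGTTTAC (forkhead), GGGCGG (Sp), AACAAT (SOX) or the palindromic EBF motif.
Sox5, chr6:143947107-143947356, minus strand: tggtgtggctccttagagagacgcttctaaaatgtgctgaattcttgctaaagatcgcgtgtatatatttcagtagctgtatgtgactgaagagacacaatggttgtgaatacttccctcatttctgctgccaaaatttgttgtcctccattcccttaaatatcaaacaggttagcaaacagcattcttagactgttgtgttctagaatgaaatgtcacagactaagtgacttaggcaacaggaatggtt
Sp9, chr2:73271676-73271925, plus strand: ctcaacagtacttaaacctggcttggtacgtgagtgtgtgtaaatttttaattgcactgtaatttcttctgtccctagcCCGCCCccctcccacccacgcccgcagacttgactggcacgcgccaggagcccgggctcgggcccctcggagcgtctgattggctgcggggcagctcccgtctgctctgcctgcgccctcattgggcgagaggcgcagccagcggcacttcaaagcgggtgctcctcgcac
Ebf1, chr11:44617850-44618099, plus strand: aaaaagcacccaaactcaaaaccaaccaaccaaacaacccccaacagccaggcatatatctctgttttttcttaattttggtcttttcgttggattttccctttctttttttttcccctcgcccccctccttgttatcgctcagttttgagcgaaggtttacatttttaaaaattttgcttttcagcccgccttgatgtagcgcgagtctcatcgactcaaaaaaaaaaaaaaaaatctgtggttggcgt
Tshz2, chr2:169632259-169632508, plus strand: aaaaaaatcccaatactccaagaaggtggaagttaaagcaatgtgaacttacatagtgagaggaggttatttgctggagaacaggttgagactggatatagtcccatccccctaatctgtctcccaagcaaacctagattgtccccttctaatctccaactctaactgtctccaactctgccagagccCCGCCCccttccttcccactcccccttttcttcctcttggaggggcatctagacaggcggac
The windows of Sp9 and Tshz2 each held 1 GGGCGG and no other motif, and those of Sox5 and Ebf1 held none. GGGCGG was found in 19 of the 47 member windows (40.4%) and in 32.7% of all 32851 windows. TAATTA was in 2 of 47 (4.26%, all windows 4.84%), TGACAG in 6 (12.8% and 15.9%), AACAAT in 4 (8.51% and 9.42%), TGTTTAC in 1 (2.13% and 3.17%) and the EBF motif in 0 (all windows 0.779%).

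Other forebrain factors, none of them among the 39, were taken from 3 lists. Of 14 tested subpallial factors, 2 were higher and 5 lower in Prkcd nuclei, led by the zinc finger factor Ikzf1 at a log2 difference of 3.15, and 8 were higher and 1 lower in the Interneuron class, led by Zeb2 at 6.0 and St18 at 3.84. Ikzf1 was not particular to Prkcd nuclei. It was also higher in Calcrl (2.37) and Rarb nuclei (2.25), and most of all in microglia (9.58). In Dnah5 and Sst nuclei the fit gave Ikzf1 an SE of 4341 and 4559, so no difference could be estimated there. The size of its Prkcd difference, with an SE of 0.66, is therefore not read. In Vdr nuclei Etv1 and Rxrg were among those higher, at 2.59 and 2.11, and in Dlk1 nuclei none passed in either direction. Of 13 listed pallial factors 4 were tested. All 4 were higher in excitatory nuclei and 3 in the Interneuron class, and 2 were higher in each of Rai14 nuclei, Rarb nuclei, OPC and microglia. In Prkcd nuclei 0 were higher and 2 lower. The shares of all genes called in each class are those given beside the members. Of 8 tested glial factors, 8 were higher in astrocytes, 7 in oligodendrocytes and 7 in OPC.

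Outside the inhibitory classes, members of the caudal and medial groups were in use in other lineages. Excitatory nuclei held Nr2f2 at 122, 134 and 141 CPM in fed 2, fasted 1 and fasted 2 and Tshz3 at 85.7 ± 19.9 CPM (SD, n = 3), with log2 differences of 4.60 ± 0.26 (SE, edgeR adjusted p = 2.48e-25) and 3.34 ± 0.28 (SE, edgeR adjusted p = 1.93e-16) (12 higher and 10 lower factors, all genes 9.86% and 6.52%). Dlx6 and Sp9 were at 0 in all 3 excitatory libraries. Astrocytes had 14 higher and 11 lower (all genes 31.6% and 24.5%), led by Nfia at 2752, 2280, 2012, 2255 and 2077 CPM (7.25 ± 0.13 (SE, edgeR adjusted p = 5.24e-58)), with Sox6 and Nfib at 912 ± 76.9 and 888 ± 142 CPM (SD, n = 5). Nfia and Nfib were seen together in 82.1% ± 14.2 (SD, n = 5) of astrocytes. OPC had 12 higher and 7 lower (all genes 12.7% and 16.0%), led by Sox6 at 2146 ± 323 CPM (SD, n = 4) (6.86 ± 0.26 (SE, edgeR adjusted p = 2.52e-36)).

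Oligodendrocytes had 6 higher and 10 lower (all genes 17.7% and 20.5%), with Prox1 at 376, 88.2, 17.8, 129 and 137 CPM from 65 UMIs and Onecut2 at 470.4, 127, 178, 257 and 137 CPM from 93 UMIs. Both were highest in fed 1, and the log2 difference of Prox1 was 5.66 ± 0.43 (SE, edgeR adjusted p = 1.2e-18). Onecut2 reached the cut of the count filter in 3 or more libraries in this class only, so its level here is given without a test. Microglia had 2 higher and 5 lower (all genes 11.9% and 17.1%), Maf at 923, 633 and 196 CPM in fed 1, fed 2 and fasted 2 and Nfia at 831, 633 and 327 CPM in fed 1, fed 2 and fasted 2. For microglia and OPC the scaling mattered: DESeq2 moved the median log2 difference of all genes by 0.47 and 0.20 from the edgeR value, less than the log2 differences of 6.17 for Maf, 4.62 for Nfia in microglia and 6.86 for Sox6 in OPC. Neuronal transcripts were present at low levels in glial sums, with Gad1 at 31 ± 12.3 CPM (SD, n = 5) in astrocytes against 189 ± 31.1 CPM (SD, n = 5) in Prkcd nuclei. The glial gates took only nuclei with fewer than 2 UMIs of Gad1 and Gad2 together, which held the Gad1 level of astrocytes down. The part of neuronal transcripts in low member levels of glia was not tested.

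The second comparison asked whether food deprivation changed these factors. Of 228 pairs of a factor and a class that could be tested in 11 classes, 2 were called, Tshz2 in Prkcd nuclei (all genes 0.0471% lower) and Zfhx3 in astrocytes (all genes 0.550% higher). Over the same classes 0.121% of all tests of a gene were called. In Prkcd nuclei Tshz2 stood at 793, 852 and 1065 CPM in the fed and 497 and 441 CPM in the fasted libraries, so the groups did not overlap. It fell by 0.96 on the log2 scale (SE 0.16, edgeR adjusted p = 0.00559), lower in 2 of 2 fasted libraries. The call was lost without fed replicate 3 (-0.84, edgeR adjusted p = 0.0575), the Htr2a-Cre library. The fit with the replicate number as a block, which rests on 2 pairs of libraries, gave -0.84 (edgeR adjusted p = 0.00329). Nuclei that passed a second inhibitory gate or a glial gate were not in the Prkcd class. The gate thus held the sums of other markers down, and they do not measure how much RNA of other cells was present. Markers of the other inhibitory gates summed to 177 to 264 CPM in the fed and 205 to 222 CPM in the fasted libraries of the Prkcd class, with 8 of the 14 genes higher on average in fasted libraries and none at 0. Astrocyte markers summed to 2.27 to 7.76 CPM in the fed and 14.7 to 19.1 CPM in the fasted libraries, and Prkcd, the gate gene, stood at 689, 692 and 697 CPM in fed and 560.4 and 550.2 CPM in fasted libraries. Their part in the Tshz2 result, and that of the mitochondrial share, was not tested.

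Tshz2 in other classes gave these values. In Calcrl nuclei it was 187, 269 and 381 CPM in fed against 84.7 and 122 CPM in fasted libraries, a log2 difference of -1.40 ± 0.27 (SE, edgeR adjusted p = 0.11), which edgeR did not call and DESeq2 did (adjusted p = 0.0141). In Sst nuclei it was 1751, 2293 and 2101 against 1208 and 1551 CPM (-0.61 ± 0.21 (SE, edgeR adjusted p = 0.785)), also without overlap, and in Dnah5 nuclei 2043, 1458 and 1903 against 1481 and 1408 CPM (-0.34 ± 0.18 (SE, edgeR adjusted p = 0.823)). Rai14 nuclei went the other way, at 556, 482 and 587 CPM in fed against 1417 and 831 CPM in fasted libraries. With the replicate number as a block the log2 difference was 1.00 (edgeR adjusted p = 4.51e-06). That fit rests on 2 pairs of libraries, which leave little to estimate the spread from, so its p-value is not read as firmer. In the fit without a block the log2 difference was 0.99 ± 0.23 (SE, edgeR adjusted p = 0.292). Without fasted replicate 1 it was 0.60 (edgeR adjusted p = 1.00) and without fasted replicate 2 it was 1.35 (edgeR adjusted p = 0.0137).

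**Figure D5:**
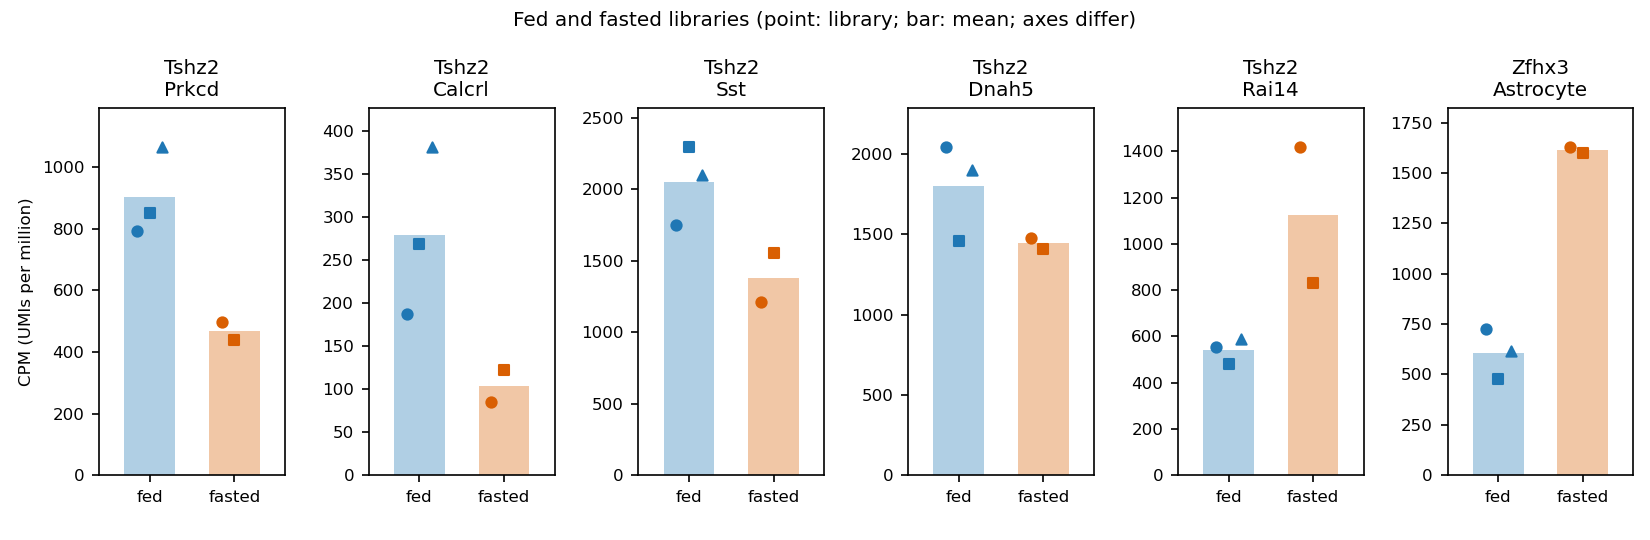
Levels in CPM on the vertical axis of Tshz2 in 5 classes and of Zfhx3 in astrocytes, with a point for each library (3 fed, 2 fasted) and a bar at the group mean, starting at 0 on axes that differ between panels. Fasted libraries lay below the fed ones for Tshz2 in Prkcd, Calcrl and Sst nuclei and above them in Rai14 nuclei and for Zfhx3 in astrocytes.

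The fasting difference of Tshz2 in Rai14 nuclei minus that in Prkcd nuclei was 1.88 ± 0.22 (SE, edgeR adjusted p = 0.000579), 1 gene called of 9133 (0.0109% of all genes), in a fit added after the opposite signs were seen. Without fasted replicate 1, which gave 18 Rai14 nuclei, it was 1.65 (edgeR adjusted p = 0.0675), and without any other library the call held, the values running up to 2.17. The share of Rai14 nuclei with Foxp2 and Tshz1 moved along with it, 35.5%, 53.1% and 44.2% in fed against 13.3% and 30.3% in fasted libraries. Within Rai14 nuclei with a UMI of Foxp2 or Tshz1, Tshz2 was at 130, 195 and 387 CPM in fed against 1353 (7 nuclei) and 686 CPM in fasted libraries, and within those with neither at 902, 1092 and 1124 against 1445 and 1189 CPM. Both kinds were thus higher in the 2 fasted libraries than in the 3 fed ones. These are descriptions without a test.

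In astrocytes Zfhx3 stood at 726, 475 and 616 CPM in the fed and 1627 and 1597 CPM in the fasted libraries, a log2 difference of 1.45 ± 0.21 (SE, edgeR adjusted p = 0.0286), higher in 2 of 2 fasted libraries. The call was lost without fed replicate 1, fed replicate 2, fed replicate 3 or fasted replicate 2, with log2 differences of 1.57, 1.31, 1.45 and 1.45 and edgeR adjusted p of 0.113, 0.0765, 0.087 and 0.42. It held without fasted replicate 1. The astrocyte gate took only nuclei with fewer than 2 UMIs of Gad1 and Gad2 together that passed no other glial gate. It thereby held down the Gad and other glial markers in these sums, so they do not measure how much RNA of other cells was present. Markers of other cells gave these values in the astrocyte sums. Oligodendrocyte markers summed to 6.10 to 14.0 CPM in fed and 39.8 to 44.7 CPM in fasted libraries (3 of 3 genes higher), and microglial markers to 0 to 2.80 and 11.6 to 15.9 CPM (3 of 3). OPC markers summed to 0 to 5.60 and 6.63 to 11.9 CPM (2 of 2), and inhibitory neuron markers to 48.8 to 89.6 and 67.6 to 126 CPM (3 of 3). The inhibitory neuron sums overlapped between the groups. Excitatory markers went the other way on average, at 0, 23.2 and 2.80 CPM in fed and 3.98 and 3.31 CPM in fasted libraries (0 of 2 genes higher). That average rests on fed 2, as fed 1 and fed 3 lay below both fasted values. Zfhx3 averaged 2188 CPM in microglia and 1400 CPM over all inhibitory nuclei, and the part of other cells in this result was not tested. In the 9 inhibitory classes with a fasting fit, Zfhx3 log2 differences ran from -0.39 in Sst to 0.48 in Rai14 nuclei, and none was called.

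Fed 1 and fasted 1 were taken as one preparation batch and fed 2 and fasted 2 as another, by their replicate numbers. With that batch as a block 9 of the 228 pairs were called (all genes 0.578%). Beside the 2 above they were Tshz2, Zfhx4 and Sox6 in Rai14 nuclei (blocked log2 differences of 1.00, 0.69 and 2.45), Bcl11a in the Interneuron class (0.86), Sox5 in Pde1c nuclei (2.74), Pbx3 in Dnah5 nuclei (0.81) and Ebf1 in astrocytes (1.74). Fed 3 has no partner in this fit and adds nothing to the difference, so it rests on 2 pairs. Of these, Bcl11a in the Interneuron class had 177, 199.8 and 202 CPM in fed against 396 and 313 CPM in fasted libraries, Pbx3 in Dnah5 nuclei 142, 121 and 184 against 261 and 213 CPM, and Zfhx4 in Rai14 nuclei 365, 252 and 196 against 592 and 423 CPM, all without overlap. Such separation of 3 fed from 2 fasted libraries, here and in the other fasting comparisons, does not by itself show a change. It was also met in factors that neither fit called. Foxp1 in Prkcd nuclei was one, at 173, 187 and 188 against 190 and 189 CPM, with a log2 difference of 0.04. How often all genes separate in this way was not counted. Sox5 in Pde1c nuclei, at 11.2, 14.5 and 54.0 against 43.9 and 122 CPM, and Sox6 in Rai14 nuclei, at 0, 7.94 and 36.0 against fasted values of which the lower was 31.7 CPM, overlapped between the groups. Ebf1 in astrocytes, at 12.2, 23.2 and 50.4 against 127 and 43.1 CPM, overlapped too. In these sums oligodendrocyte, microglial, OPC and inhibitory neuron markers were higher on average in the fasted libraries. Excitatory markers were not, through fed 2 alone.

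Over all inhibitory nuclei summed, 0 of 37 tested factors were called by edgeR (all genes 0.00742%) or by DESeq2, 5 having an unadjusted p under 0.05. The smallest p went to Sp9, at 21.2, 22.4 and 24.6 CPM in fed against 15.9 and 17.9 CPM in fasted libraries (-0.45 ± 0.14 (SE, edgeR adjusted p = 0.659)), Nfia, at 15.1, 17.1 and 17.6 against 21.5 and 23.6 CPM (0.42 ± 0.14 (SE, edgeR adjusted p = 0.707)), and Sox5, at 455, 410.2 and 421 against 362 and 332 CPM (-0.32 ± 0.12 (SE, edgeR adjusted p = 0.778)). With the batch as a block 4 were called (all genes 3.27%), Nfia (0.46), Sox5 (-0.34), Tshz1 (-0.64) and Foxp2 (-0.54). Tshz1 was at 48.3, 64.0 and 50.4 against 27.5 and 46.5 CPM and Foxp2 at 107, 197 and 138 against 66.7 and 151 CPM, and the share of inhibitory nuclei with both was 5.90%, 9.92% and 6.15% against 2.07% and 7.27%. The groups overlapped for Foxp2 and not for Tshz1.

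A last comparison set the fasting difference of Dnah5 nuclei against that of Prkcd nuclei. None of 26 tested factors was called by edgeR (all genes 0.0678%) or DESeq2, and 7 had an unadjusted p under 0.05. The smallest were Ebf1 at -1.76 (edgeR adjusted p = 0.209), Tshz2 at 0.64 (0.412) and Pbx3 at 0.70 (0.589). The Ebf1 value depended on the library left out. It was -0.74 without fasted replicate 1 (edgeR adjusted p = 1) and passed without fed replicate 3 (-2.39) and without fasted replicate 2 (-2.61). Tshz2 passed without fed replicate 1 (0.78). The same test of Calcrl against Prkcd nuclei, added after Tshz2 was seen lower in both, gave 0 of 23 (all genes 0%), with 2 at an unadjusted p under 0.05. No fasting fit was made for the Tac1, Vdr, Excitatory, OPC and Microglia sums, since it was limited to classes with at least 10 nuclei in every library. OPC reached 10 nuclei in 2 fed and 2 fasted libraries and was not tested.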

How the data were processed

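Raw UMI counts of 5 libraries (10x Genomics 3′ v3.1 single-nucleus RNA sequencing) were used as the authors deposited them, unnormalised and per barcode. The file headers name Cell Ranger 5.0.0 and the submitters' processing notes Cell Ranger 2.1.1. All barcodes were filtered again at the study's general bounds. Members and lists were chosen with earlier results of these data known, and so were the tests. Named genes were, per class, up to 3 called members with the largest log2 difference that were higher in every library than the mean of the other inhibitory classes. For the feeding comparison they were every called member or the 3 with the smallest p, and the Tshz2 values beyond this rule were chosen after they were seen. Nuclei passing Calcrl and Prkcd gates went to Calcrl, Pde1c and Rarb to Pde1c, and Interneuron and Sst to Interneuron. Glial gates needed 2 UMIs and 300 CPM of 1 list, no second list at that cut, and fewer than 2 UMIs of Gad1 and Gad2 together.

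Summed counts were tested with edgeR 4.0.16 (quasi-likelihood, TMM scaling, filterByExpr, Benjamini-Hochberg over all genes tested), checked on simulated data, with DESeq2 1.42.0 as an alternative. The study's supplementary text gives preparation batches under dataset numbers of its own. The replicate number was taken as the batch because the numbers match, and no source states that match. Same-numbered libraries deviated together in summed inhibitory nuclei (r = 0.348 and 0.524 over 13472 genes). Within inhibitory classes r ran from 0.0429 to 0.314, and in astrocytes it was 0.0197 and 0.0715. The 2 values of r are not separate checks, since the deviations of the 2 fasted libraries from their mean mirror each other. Fed 1 and fasted 1 were also the shallow libraries, at a median of 8326 and 6608 UMIs against 14886 and 16367 in fed 2 and fasted 2. The part of depth in r was not tested, so r does not settle the match of numbers and batches. The libraries are separate pools of mice. In the feeding fits without a block, p-values cover the spread between them. The class contrast and the tests of fasting differences between classes had the library as a term. Their p-values cover how class differences vary from library to library. Shares used nuclei thinned to 4000 UMIs, which left out 209 of 5578 inhibitory nuclei and 254 of 448 astrocytes. Alternatives were 3 gate UMIs, bounds set per library, no doublets, no count filter, each library left out, a likelihood ratio test, equal class sizes and thinning to 2000 UMIs. Promoters came from RefSeq (GRCm38.p6). One gene of the other forebrain factors is not reported here by name.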

Additional observations from a re-analysis of the deposited data

Results flagged for a closer look

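Isl1 in Pde1c nuclei stood far from the rest in 1 library, at 43.6 CPM in fed 2 against 18.0 CPM in the next highest of the 5. It was the only one of 40 values checked in this way, where about 1 in 20 would be picked by chance. The fasting difference of Tshz2 in Rai14 nuclei minus that in Prkcd nuclei was 1.88 on the log2 scale (edgeR adjusted p = 0.000579). Tshz2 was higher in fasted libraries in Rai14 nuclei and lower in Prkcd nuclei. The fit was added after these opposite signs were seen, so its p-value does not allow for that choice. The difference was not called without fasted replicate 1 (1.65).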

How the results depend on the processing

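The 257 calls of a factor in a class became 201 (fed libraries only) to 298 (no count filter), and 228 to 249 when 1 library was left out. DESeq2 gave 243 and the replicate block 256. Refits of the 47 named class differences kept direction and side of the threshold in 547 cases and lost the call in 11, and none reversed. The 2 feeding calls became 4 with the likelihood ratio test, 9 with no count filter, 9 with the replicate block and 3 with DESeq2, and 0 to 4 when 1 library was left out, 0 of them without fed replicate 3. The 0 calls over all inhibitory nuclei became 4 with the replicate block and stayed at 0 to 0 without each library and at 0 with equal class sizes. The Dnah5 against Prkcd test gave 0 to 1 calls and the Rai14 against Prkcd test 0 to 1 when 1 library was left out, and the cause was not tested. The block changed no other call count by over 1.5 times. Joint shares of nuclei were refitted at other depths, with 3 gate UMIs and with each library left out. They moved by the SD between libraries or more in 18 refits and by less in 86. Leaving out 1 of 5 libraries cannot move a mean by that SD, so those refits show nothing about stability. Depth mattered for Six3 with Foxp1 in Pde1c nuclei, whose share ran from 4.89% at 2000 UMIs to 34.9% without thinning. Sparse members such as Dlx2, Ebf3, Sp8 and Zic1 could not be ranked between classes at this depth.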

Other observations

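Ebf3, which had 2 UMIs in all inhibitory classes together, stood at 30.8, 113 and 16.4 CPM in fed 1, fed 2 and fasted 2 in microglia, from 7 UMIs in 12, 14 and 13 nuclei. Zfhx3 was at 2800, 2487 and 1277 CPM in fed 1, fed 2 and fasted 2 in the same microglial sums, and Foxp2 at 92.3, 181 and 65.5 CPM in fed 1, fed 2 and fasted 2. These levels were seen after the fits and were not tested further.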
